A study of Caenorhabditis elegans with 16 samples.

Results

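The pals, skr and cul genes of Caenorhabditis elegans were followed across 2 genotypes and 2 bacterial diets. Members were all genes of the normalized count table whose name is pals, skr or cul followed by a number. They came to 63 of the 29351 genes in that table, with 38 pals genes, 19 skr genes and 6 cul genes. Members were taken by name alone, but the families themselves were chosen with earlier results of these data known.

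The cullins, encoded by the cul genes, are the scaffolds of a large class of ubiquitin ligases. A cullin holds a RING protein that brings in the ubiquitin-loaded enzyme and, in many of these ligases, an adaptor that brings in the substrate receptor. In SCF ligases the adaptor is Skp1, and C. elegans carries an unusually large family of Skp1-related adaptors, the skr genes. The pals genes are a nematode family of largely unknown biochemical function, and many of them are switched on by intracellular infection. In C. elegans, microsporidia in the intestine and the Orsay virus induce a shared set of genes called the intracellular pathogen response, which includes several pals genes, skr-3, skr-4, skr-5 and cul-6. PALS-22 represses this response and PALS-25, encoded next to it, activates it, while CUL-6 with SKR-3, SKR-4 or SKR-5 forms a ligase linked to tolerance of proteotoxic stress.

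RNA-seq had been performed on whole worms at day 1 of adulthood, after 3 days of growth at 20 °C. The mutant groups were rnp-6(G281D) on E. coli BW25113, a K12-type strain, and rnp-6(G281D) on E. coli OP50, the standard B-type strain, and the wild-type groups were N2 on BW25113 and N2 on OP50, with 4 samples in each. The rnp-6(G281D) allele, dh1127, is a hypomorph of the sole C. elegans ortholog of the human splicing factor PUF60, so it models reduced rather than absent function. Because RNA came from whole animals, a lower value could come from fewer cells of a type or from less RNA per cell, and these cannot be told apart.

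Depth, estimated from the steps between low values, was about 32577831 to 48199598 reads per library, and summed normalized counts were 36330390 to 38381707. The log2 values of any pair of libraries correlated at 0.989 to 0.994 within groups and at 0.972 to 0.991 between groups. The rnp-6 transcript, which the point mutation does not remove, was higher in rnp-6(G281D) than in wild type by a log2FC of 0.35 on OP50 and 0.44 on BW25113, so its level is no check of the allele. In replicate 1 of both mutant groups a single transcript, F31C3.14, made up 2.33% and 2.03% of the total, whereas the most abundant gene of every other library reached at most 1.14%. The values without these 2 libraries are given where they change a call.

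Means over the 16 samples ran between 319 and 8089.9 normalized counts for the cul genes and between 31.4 and 5197 for the skr genes. For the pals genes the median of these means was 10.5 normalized counts and the highest was 148. A mean of at least 10 normalized counts, the minimum for testing, was reached by 45 members, comprising 20 pals genes, all 19 skr genes and all 6 cul genes, of 15799 genes tested in all. Of the 18 pals genes below it, 11 averaged under 1 normalized count and pals-7 was at 0 in all 16 samples.

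Levels were compared between genes only in FPKM, which divides by transcript length and was given for 51 members. On this scale skr-2 came first at 161 ± 7.21 FPKM (SD over 16 samples), followed by skr-1 at 93.5 ± 5.04 FPKM, the adaptors of the essential SCF ligases. Of the cullins, cul-4, cul-2 and cul-5 lay within their spread of each other at 39.7 ± 1.49, 38.9 ± 1.14 and 38.1 ± 2.41 FPKM. Next came cul-1, the SCF scaffold, at 29.6 ± 1.81 FPKM and cul-3 at 19.8 ± 0.63 FPKM. The infection-linked cul-6 was far scarcer at 2.12 ± 1.11 FPKM. Every pals gene but pals-26 lay at or below the 3.07 ± 0.73 FPKM of pals-17, and pals-26 stood at 28.3 ± 6.57 FPKM although its mean was only 54.0 normalized counts. The same held for pals-20, at 1.38 ± 0.59 FPKM with a mean of 5.63 normalized counts, where pals-22 had 1.53 ± 0.23 FPKM and 107 normalized counts. Conversely, pals-13 was at 0.0131 ± 0.0138 FPKM with a mean of 22.8 normalized counts. The sources used here do not say which tool made the FPKM values. The disagreement for these 3 genes was not resolved, so the place of a pals gene in this order is uncertain.

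Many members lie side by side. Coordinates are those of genome build WBcel235. With neighbours of a family less than 20 kb apart taken as one group, 14 pals genes sat on chromosome I between 13083321 and 13144623, among them pals-4, pals-5, pals-6 and pals-14. On chromosome III, pals-24, pals-23, pals-22 and pals-25 lay in this order between 120435 and 137975, and a further 7 pals genes including pals-16, pals-17 and pals-20 between 1376945 and 1406263. On chromosome V, pals-37, pals-39 and pals-38 lay between 12437440 and 12446995. Of the adaptors, skr-13, skr-9, skr-8 and skr-12 shared 5.7 kb of chromosome IV between 17162097 and 17167792, skr-14 and skr-7 lay next to each other on chromosome V, and skr-20, skr-19 and skr-21 on X. By contrast, skr-3, skr-4 and skr-5 lay far apart on chromosome V, and cul-6 on chromosome IV between 12586485 and 12590451. All 63 members are annotated as protein coding.

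The first comparison asked how the mutation changed these families on OP50. In rnp-6(G281D), cul-6 was 3.05-fold higher, its adaptors skr-3, skr-4 and skr-5 were 2.12-fold, 1.89-fold and 3.30-fold higher, and 8 pals genes rose, led by pals-6 at 14.7-fold. The adaptors skr-8, skr-9, skr-10, skr-12 and skr-13 fell, as did pals-1. In all, 12 members rose and 6 fell of 45 tested, with calls made where the adjusted p was below 0.05 and log2FC exceeded 0.5 in size, which is 40% of members, where 11.5% of all 15799 genes tested passed, 5.9% higher and 5.6% lower. The median log2FC of the 45 was -0.01 and that of all genes tested was 0.00, so the members moved in both directions. The 12 rises included pals-14, pals-37 and pals-39, which averaged under 10 normalized counts in both wild-type groups. These genes passed the minimum for testing only through their mutant samples, so they are no independent part of the count.

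In the CUL-6 ligase, the scaffold gene cul-6 measured 357, 365, 467 and 322 normalized counts in rnp-6(G281D) on BW25113 and 497, 534, 652 and 510.1 in rnp-6(G281D) on OP50, against 166, 174, 187 and 152 in wild type on BW25113 and 176, 190.4, 175 and 172 in wild type on OP50. Both mutant groups lay wholly above both wild-type groups, and the mutant samples on OP50 lay above those on BW25113. On OP50 its log2FC was 1.61 ± 0.09 (SE, adjusted p = 7.59e-07).

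The adaptor gene skr-3 measured 946, 965, 1073 and 957 normalized counts in rnp-6(G281D) on BW25113 and 1592, 1699, 1769 and 1679.8 in rnp-6(G281D) on OP50, against 745, 781, 788 and 808 in wild type on BW25113 and 868, 746, 750.2 and 816 in wild type on OP50. The mutant samples on OP50 stood apart from all others, and the mutant samples on BW25113 lay between them and wild type. Its log2FC on OP50 was 1.08 ± 0.05 (SE, adjusted p = 3.77e-07).

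For skr-4, the values were 484, 450.2, 479 and 523 normalized counts in rnp-6(G281D) on BW25113 and 703, 803, 803 and 855 in rnp-6(G281D) on OP50, against 433, 396, 427 and 395 in wild type on BW25113 and 409, 479, 386 and 398 in wild type on OP50. The mutant samples on OP50 lay above every other sample, while the mutant samples on BW25113 overlapped with wild type on OP50. Its log2FC on OP50 was 0.92 ± 0.08 (SE, adjusted p = 1.47e-05).

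The scarcer skr-5 measured 31.4, 24.5, 26.4 and 28.2 normalized counts in rnp-6(G281D) on BW25113 and 46.1, 69.5, 62.9 and 70.7 in rnp-6(G281D) on OP50, against 18.6, 14.4, 21.9 and 13.5 in wild type on BW25113 and 19.1, 13.1, 25.9 and 15.8 in wild type on OP50. Every mutant sample on OP50 exceeded every sample of the other groups, and its log2FC on OP50 was 1.72 ± 0.24 (SE, adjusted p = 0.000352). The gene lies across lsy-27 on the opposite strand, which stayed at group means of 994 to 1071 normalized counts and passed the test in no comparison.

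The core SCF and other cullin genes did not follow cul-6. The largest difference among cul-1 to cul-5 was that of cul-5, at 3968 ± 91.9 normalized counts (SD, n = 4, as for all group means below) in rnp-6(G281D) and 4504 ± 91.3 normalized counts in wild type on OP50, a log2FC of -0.18 ± 0.03 (SE, adjusted p = 0.000517). Smaller differences below the fold threshold were measured for cul-4, the partner of DDB-1 in replication control, with a log2FC of -0.13 ± 0.03 (SE, adjusted p = 0.00754), and for cul-1 with a log2FC of -0.10 ± 0.03 (SE, adjusted p = 0.0305). For cul-2, the scaffold used by VHL-1, the log2FC was -0.03 with a 95% interval of -0.10 to 0.04, and for cul-3, the scaffold of BTB-domain adaptors, -0.01 with an interval of -0.10 to 0.08. The principal SCF adaptor genes skr-1 and skr-2 had log2FC of -0.06 (interval -0.12 to 0.00) and -0.02 (interval -0.09 to 0.05). These intervals all exclude a change of the size seen for cul-6.

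**Figure D1:**
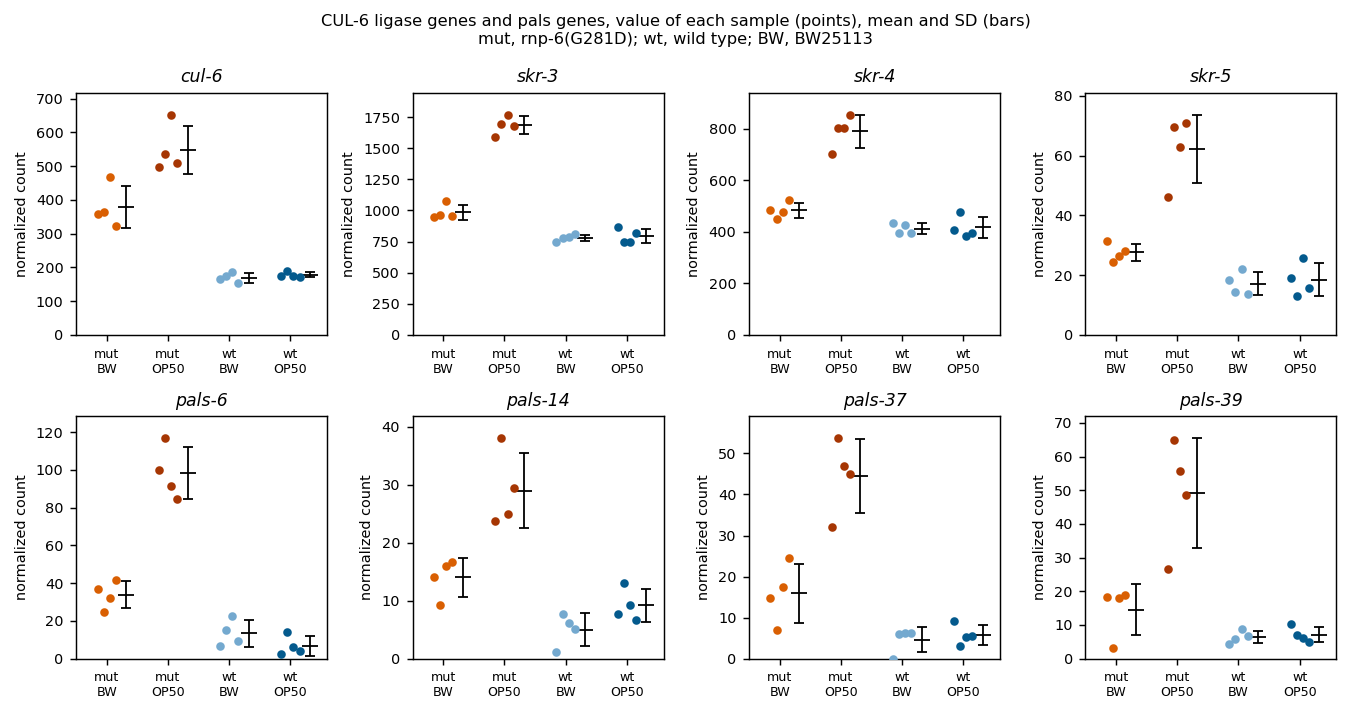
Normalized counts (vertical axis, linear, starting at 0) of cul-6, skr-3, skr-4, skr-5, pals-6, pals-14, pals-37 and pals-39 in each sample (points), with the mean and SD of the 4 samples of a group (bars), for rnp-6(G281D) on BW25113, rnp-6(G281D) on OP50, wild type on BW25113 and wild type on OP50. For each of the 8 genes the mutant samples on OP50 lie above all wild-type samples, as cul-6 does at 497 to 652 normalized counts against 152 to 190.4 in wild type on both diets.

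Among the pals genes, pals-6, one of the genes induced by microsporidia, measured 36.8, 24.8, 32.1 and 41.9 normalized counts in rnp-6(G281D) on BW25113 and 99.8, 117, 91.3 and 84.7 in rnp-6(G281D) on OP50, against 6.57, 15.4, 22.7 and 9.31 in wild type on BW25113 and 2.57, 14.1, 6.18 and 4.13 in wild type on OP50. By a wide margin the mutant samples on OP50 were the highest, and all mutant samples on BW25113 stayed above wild type. Its log2FC on OP50, computed with 1 added to each value, was 3.88 ± 0.38 (SE, adjusted p = 3.54e-05), the largest of any member.

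The neighbouring pals-37 and pals-39 on chromosome V came next. Counts of pals-37 were 14.7, 7.04, 17.5 and 24.5 normalized counts in rnp-6(G281D) on BW25113 and 32.2, 53.6, 46.95 and 44.9 in rnp-6(G281D) on OP50, against 0, 5.998, 6.36 and 6.16 in wild type on BW25113 and 9.16, 3.15, 5.36 and 5.62 in wild type on OP50. Counts of pals-39 were 18.4, 3.10, 17.95 and 18.8 normalized counts in rnp-6(G281D) on BW25113 and 26.8, 65.1, 55.9 and 48.5 in rnp-6(G281D) on OP50, against 4.38, 5.76, 8.74 and 6.77 in wild type on BW25113 and 10.3, 7.07, 6.18 and 4.96 in wild type on OP50. In both genes the mutant samples on OP50 exceeded all wild-type samples, pals-37 with a log2FC of 2.78 ± 0.30 (SE, adjusted p = 6.69e-05) and pals-39 with a log2FC of 2.59 ± 0.31 (SE, adjusted p = 0.000144). The third gene of this group, pals-38, was below the minimum for testing at 12.1 ± 2.24 normalized counts in rnp-6(G281D) and 5.97 ± 0.998 normalized counts in wild type on OP50.

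For pals-14, which lies next to pals-6 on the other strand and is likewise an infection-induced gene, counts were 14.1, 9.27, 16.1 and 16.7 normalized counts in rnp-6(G281D) on BW25113 and 23.7, 37.95, 24.9 and 29.4 in rnp-6(G281D) on OP50, against 1.09, 7.69, 6.12 and 5.08 in wild type on BW25113 and 7.73, 13.1, 9.28 and 6.62 in wild type on OP50. The mutant groups lay above the wild-type group of the same diet, with a log2FC on OP50 of 1.57 ± 0.26 (SE, adjusted p = 0.00124). Of the tested pals genes, 4, namely pals-6, pals-14, pals-37 and pals-39, averaged under 10 normalized counts in wild type on OP50, so their folds rest on few reads in wild type. Of these, pals-14, pals-37 and pals-39 also averaged under 10 in wild type on BW25113 and passed the minimum through their mutant samples.

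Among the regulators of the response, the changes were smaller. The activator gene pals-25 was at 134 ± 15.2 normalized counts in rnp-6(G281D) and 121 ± 17.5 normalized counts in wild type on OP50, a log2FC of 0.14 ± 0.13 (SE, adjusted p = 0.447). Its antagonist pals-22 was at 124 ± 12.6 normalized counts in rnp-6(G281D) and 89.99 ± 16.3 normalized counts in wild type, and its log2FC of 0.47 ± 0.14 (SE, adjusted p = 0.0312) lay under the fold threshold. In the second regulatory group on chromosome III, pals-17, a repressor of the response, measured 159.8 ± 30.3 normalized counts in rnp-6(G281D) and 99.3 ± 13.9 normalized counts in wild type on OP50 and rose by a log2FC of 0.67 ± 0.16 (SE, adjusted p = 0.00842). Its neighbour pals-16, an activator, rose by a log2FC of 0.68 ± 0.15 (SE, adjusted p = 0.00584), with a mean of 97.6 ± 12.2 normalized counts in rnp-6(G281D) and 60.4 ± 8.57 normalized counts in wild type. The activator pals-20 and the reporter gene of the response, pals-5, were below the minimum in normalized counts and were not tested. For pals-20 the OP50 means were 7.17 ± 3.29 normalized counts in rnp-6(G281D) and 3.58 ± 1.97 normalized counts in wild type. In FPKM, pals-20 was at 2.46, 1.87, 0.952 and 1.75 in rnp-6(G281D) on OP50, against 1.244, 1.07, 0.489 and 0.723 in wild type on OP50, and these groups overlap. In FPKM, each of these mutant samples was above the wild-type sample of the same number. In normalized counts this did not hold for replicate 4, at 4.53 in rnp-6(G281D) and 5.79 in wild type on OP50. On BW25113, pals-20 ran between 1.46 and 2.34 FPKM in rnp-6(G281D) and between 0.573 and 1.27 FPKM in wild type, without overlap. In normalized counts the BW25113 groups overlapped, and none of these differences was tested. The opposite-strand gene Y82E9BR.5, which overlaps pals-20, was called higher in the mutant on both diets. For pals-5, values of 0, 2.71, 2.26 and 3.39 normalized counts in rnp-6(G281D) on OP50 stood against 4.30, 0, 0 and 0 in wild type on OP50, so no difference was detectable at this depth.

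Of the remaining pals genes called on OP50, pals-4 rose by a log2FC of 0.64 ± 0.15 (SE, adjusted p = 0.00913) and pals-32 by 0.97 ± 0.30 (SE, adjusted p = 0.0328). The call of pals-32 was close to the limit: without replicate 2, 3 or 4 of rnp-6(G281D) or replicate 1 or 3 of wild type its adjusted p was 0.0598 to 0.0889 at a log2FC of 0.73 to 0.99. The only pals gene that fell was pals-1, which lies alone on chromosome I between 11579856 and 11581989. Its counts were 25.98, 26.7, 22.7 and 16.7 normalized counts in rnp-6(G281D) on BW25113 and 13.4, 13.6, 16.6 and 19.3 in rnp-6(G281D) on OP50, against 30.6, 41.3, 39.4 and 27.1 in wild type on BW25113 and 30.1, 39.4, 40.3 and 32.3 in wild type on OP50. The mutant samples on OP50 lay below the wild-type samples without overlap, with a log2FC of -1.13 ± 0.21 (SE, adjusted p = 0.00206). Summed over all 38 pals genes, normalized counts were 1008 to 1114 in rnp-6(G281D) on BW25113, 1459.8 to 1679 in rnp-6(G281D) on OP50, 1149 to 1189 in wild type on BW25113 and 1139 to 1293 in wild type on OP50, so only the mutant on OP50 stood above the rest.

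The adaptors that fell in rnp-6(G281D) on OP50 are a separate set. The genes skr-7, skr-8, skr-9 and skr-10 have been linked by RNAi in C. elegans to embryonic and larval development and to body morphogenesis. Values of skr-8 were 449, 434, 681 and 464 normalized counts in rnp-6(G281D) on BW25113 and 319, 306, 207 and 276 in rnp-6(G281D) on OP50, against 597, 689, 764 and 584 in wild type on BW25113 and 491, 500.0, 631 and 405 in wild type on OP50. For skr-9 they were 349, 289, 475 and 369 normalized counts in rnp-6(G281D) on BW25113 and 209, 265, 167 and 228 in rnp-6(G281D) on OP50, against 435, 555, 624 and 420.1 in wild type on BW25113 and 374, 358, 466 and 341 in wild type on OP50. In both genes the mutant samples on OP50 were the lowest of all 16 samples, with log2FC of -0.87 ± 0.15 (SE, adjusted p = 0.00168) and -0.83 ± 0.14 (SE, adjusted p = 0.00134).

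Their neighbour skr-12 measured 271, 217, 366 and 236 normalized counts in rnp-6(G281D) on BW25113 and 147, 162, 124 and 153 in rnp-6(G281D) on OP50, against 266, 374, 368 and 306 in wild type on BW25113 and 299, 316, 335 and 256 in wild type on OP50. Again the mutant samples on OP50 lay below every other sample, at a log2FC of -1.03 ± 0.11 (SE, adjusted p = 7.14e-05). Counts of skr-10, which lies more than 1 Mb from this group, were 485, 457, 679 and 440.2 normalized counts in rnp-6(G281D) on BW25113 and 291, 338, 224 and 263 in rnp-6(G281D) on OP50, against 555, 676, 734 and 565 in wild type on BW25113 and 556, 576, 619 and 458 in wild type on OP50. Its mutant samples on OP50 were likewise the lowest, at a log2FC of -0.99 ± 0.13 (SE, adjusted p = 0.000226). For skr-13 the means on OP50 were 243 ± 30.1 normalized counts in rnp-6(G281D) and 401 ± 22.7 normalized counts in wild type, a log2FC of -0.73 ± 0.10 (SE, adjusted p = 0.000261).

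Differences in the same direction but under the fold threshold were measured for skr-7, at a log2FC of -0.40 ± 0.07 (SE, adjusted p = 0.00189), and for its neighbour skr-14, at a log2FC of -0.38 ± 0.08 (SE, adjusted p = 0.00444). The fall of skr-18 was also under the threshold but had little spread, at a log2FC of -0.36 ± 0.04 (SE, adjusted p = 4.96e-05). The other adaptors, skr-15, skr-16, skr-17, skr-19, skr-20 and skr-21, did not pass the test and lay between -0.17 and 0.13 in log2FC. Because skr-7 to skr-10 and skr-12 to skr-14 are close paralogs, reads may have been divided among them, and none of them was listed in the FPKM table.

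Some genes first transcribed in the embryo also fell. Of 5 such markers tested, end-1, tbx-37 and tbx-38 fell in rnp-6(G281D) on OP50 relative to wild type and none rose, while end-3 and ceh-51 had log2FC of -0.01 and 0.08. Their summed level was 211 to 286 normalized counts in rnp-6(G281D) on BW25113, 158.05 to 184 in rnp-6(G281D) on OP50, 208 to 268 in wild type on BW25113 and 197 to 234.5 in wild type on OP50, and no marker was at 0. None of 12 oocyte and eggshell markers passed the test in any comparison. Of 7 larval moult markers, mlt-8, mlt-11 and noah-2 rose in rnp-6(G281D) on OP50 and none fell. On BW25113 mlt-8 was higher than on OP50 in the mutant and higher than in wild type, and noah-2 was higher than on OP50 in wild type. The moult markers summed to 3339 to 6997 normalized counts in rnp-6(G281D) on BW25113, 2453 to 3759 in rnp-6(G281D) on OP50, 2489 to 3836 in wild type on BW25113 and 2209 to 2665 in wild type on OP50, and none was at 0. The part of embryonic and moult transcripts in the members' values was not tested.

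**Figure D2:**
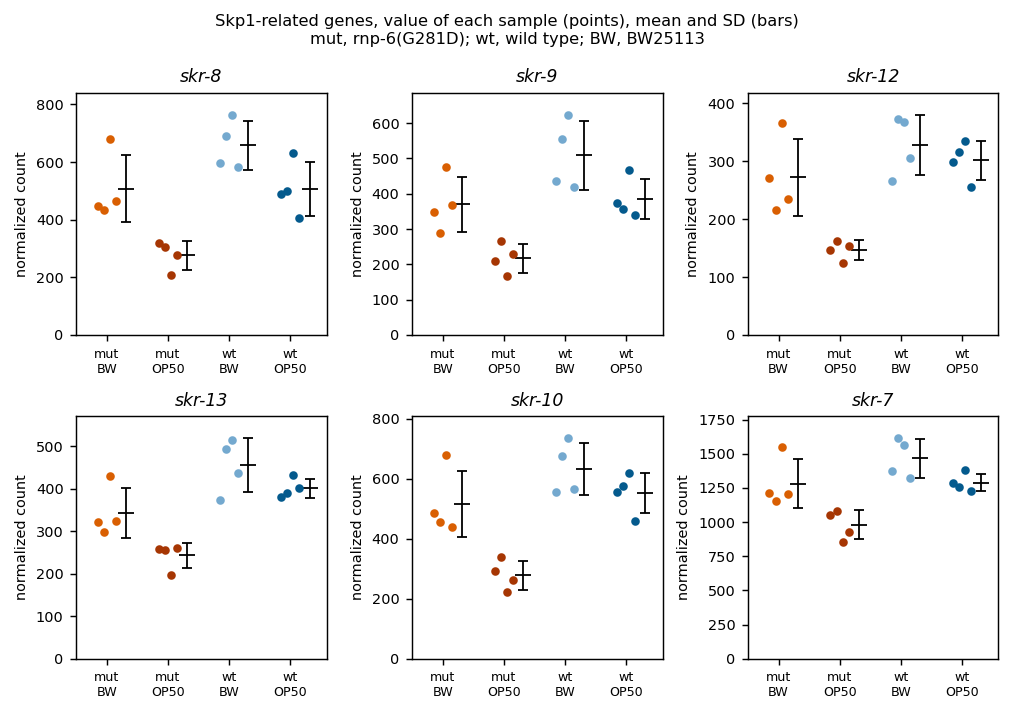
Normalized counts (vertical axis, linear, starting at 0) of skr-8, skr-9, skr-12, skr-13, skr-10 and skr-7 in each sample (points), with mean and SD of the 4 samples of a group (bars), for rnp-6(G281D) on BW25113, rnp-6(G281D) on OP50, wild type on BW25113 and wild type on OP50. The mutant samples on OP50 are the lowest in each panel, and replicate 3 of rnp-6(G281D) on BW25113 is the highest of its group in all 6, as at 681 normalized counts for skr-8.

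All 18 members called on OP50 had groups that did not overlap, for which the exact permutation test over 70 divisions of 8 samples gave p = 0.0286, the smallest it allows, two-sided. Groups without overlap always give this p, so it is no separate support for the calls. Among all 45, 14 members lay wholly above and 13 wholly below wild type, where 14.8% and 15.9% of all genes tested did so. The numbers called depended on the fold threshold: 7 rose and 2 fell at an absolute log2FC over 1, where 2.41% of all genes tested rose and 1.86% fell.

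The second comparison asked what the BW25113 diet changed in rnp-6(G281D) worms. In the mutant on BW25113, cul-6, skr-3, skr-4 and skr-5 and 8 pals genes were lower than on OP50, and skr-8, skr-9, skr-10 and skr-12 were higher. This made 4 members higher and 12 lower of 45, or 35.6%, where 9.36% of all genes tested passed, 2.15% higher and 7.22% lower. The 12 included pals-14, pals-37 and pals-39, which passed the minimum for testing only through their mutant samples. The mutant samples on OP50 are part of both this comparison and the first, so a high or low value in them moves both. After quantile normalization 5 members were higher and 9 lower, and among all genes the share of calls that were higher was 38.6% in place of 22.9%.

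In the CUL-6 ligase the log2FC was -0.54 ± 0.12 (SE, adjusted p = 0.0104) for cul-6, with means of 378 ± 62.4 normalized counts on BW25113 and 548 ± 70.7 normalized counts on OP50. For skr-3 it was -0.77 ± 0.05 (SE, adjusted p = 3.6e-06), the most precise of the falls. For skr-4 it was -0.71 ± 0.07 (SE, adjusted p = 6.72e-05) and for skr-5 -1.13 ± 0.19 (SE, adjusted p = 0.00269). The groups did not overlap in any of these genes. Among all 45 members, 10 lay wholly above and 13 wholly below on BW25113, where 10.2% and 12.9% of all genes tested did so. The fall of cul-6 was close to the fold threshold and was under it, at -0.47 and -0.46, without replicate 4 on BW25113 or replicate 3 on OP50. It was also under the threshold after quantile normalization, at -0.44. With no minimum mean it did not pass limma's test (adjusted p = 0.0731).

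The largest falls among the pals genes were those of pals-39 with a log2FC of -1.86 ± 0.50 (SE, adjusted p = 0.0265), pals-23 with -1.67 ± 0.17 (SE, adjusted p = 7.59e-05), and pals-6 with -1.52 ± 0.19 (SE, adjusted p = 0.000363). Next came pals-37 at -1.52 ± 0.34 (SE, adjusted p = 0.0111) and pals-24 at -1.48 ± 0.18 (SE, adjusted p = 0.000273). Smaller falls were measured for pals-14 at -1.003 ± 0.26 (SE, adjusted p = 0.0225), pals-34 at -0.60 ± 0.15 (SE, adjusted p = 0.0184) and pals-4 at -0.56 ± 0.16 (SE, adjusted p = 0.0364). Counts of pals-34, on chromosome V, averaged 65.8 ± 12.04 normalized counts on BW25113 and 99.5 ± 5.26 normalized counts on OP50.

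Several of these calls were close to the limit and were lost when 1 library was left out, with folds of similar size. The fall of pals-4 did not pass without any one of replicates 2, 3 and 4 on BW25113 and replicates 1 to 4 on OP50 (adjusted p 0.0642 to 0.0923, log2FC -0.58 to -0.48). For pals-14 this was so without replicate 2 on BW25113 or replicate 2 or 4 on OP50 (adjusted p 0.0554 to 0.0605, log2FC -0.99 to -0.83). Likewise pals-39 did not pass without replicate 2, 3 or 4 on OP50 (adjusted p 0.0624 to 0.0639, log2FC -1.84 to -1.70) and pals-34 without replicate 4 on OP50 (adjusted p 0.0516, log2FC -0.58). Without the 2 libraries rich in F31C3.14, pals-4, pals-14 and pals-34 had adjusted p of 0.0694, 0.0573 and 0.0807 at log2FC of -0.64, -1.10 and -0.57, and pals-33 passed as lower on BW25113 at a log2FC of -1.29 and an adjusted p of 0.0444.

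The regulators pals-22, pals-25, pals-16 and pals-17 were not called, with log2FC of -0.20, -0.09, -0.47 and -0.02. For pals-16 the interval was -0.95 to 0.01, wide because its mutant samples on BW25113 spread between 48.2 and 97.4 normalized counts.

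The rises on BW25113 were 0.88 ± 0.15 (SE, adjusted p = 0.00311) for skr-10, 0.86 ± 0.16 (SE, adjusted p = 0.0042) for skr-12, 0.86 ± 0.16 (SE, adjusted p = 0.00516) for skr-8 and 0.76 ± 0.16 (SE, adjusted p = 0.00971) for skr-9, as log2FC. For skr-13, at 0.49 ± 0.13 (SE, adjusted p = 0.0232), the change was just under the fold threshold, and without any one of replicates 1, 2 and 4 of either group it was over it, at 0.52 to 0.56. Replicate 3 on BW25113 was the highest sample of its group for all 5 genes, and without it the log2FC of skr-10, skr-12, skr-8 and skr-9 were 0.74, 0.71, 0.71 and 0.63 and still passed. This library also had the highest sums of its group for the embryonic markers, at 286 normalized counts against 211 to 257 in the others, and for the moult markers, at 6997 against 3339 to 4268. Of the 5 embryonic markers, end-1 was higher on BW25113 and none was lower.

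Intestinal markers summed highest in rnp-6(G281D) on OP50, whereas on BW25113 the mutant sums were not above those of wild type. Single markers differed in direction between genotypes on BW25113. The log2FC there was 0.23 for elt-2 and 0.19 for ifb-2, against -0.09 for ges-1, -0.03 for act-5 and -0.14 for vha-6. Of these, only ifb-2 had an adjusted p under 0.05 (limma, 0.0266). The summed level of 5 intestinal genes was 30888 to 34858 normalized counts in rnp-6(G281D) on BW25113, 37543 to 40521 in rnp-6(G281D) on OP50, 32344 to 35484 in wild type on BW25113 and 33667 to 36163 in wild type on OP50. None of the 5 was called in any comparison and none was at 0. Below the fold threshold, elt-2, ges-1, ifb-2 and act-5 were higher in rnp-6(G281D) on OP50, at log2FC of 0.42, 0.19, 0.40 and 0.14. Their adjusted p by limma were 0.00728, 0.00713, 0.000121 and 0.00519, whereas vha-6 was at 0.10 with an adjusted p of 0.137. The median log2FC of the 5 genes was 0.19 between genotypes on OP50 and -0.22 between diets in the mutant. The part of intestinal tissue in the values of cul-6, skr-3, skr-4 and skr-5 was not tested.

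In wild type, no member was called between the diets. Between BW25113 and OP50, 0 of 45 members passed limma's test, and 3.33% of all genes tested passed. At an unadjusted p under 0.05 there were 10 members of 45, where 21% of all genes tested were under it. On BW25113, 1 member lay wholly above and 3 wholly below its values on OP50, where 5.85% and 7.53% of all genes tested did so. For cul-6 the log2FC was -0.08 with an interval of -0.27 to 0.12, for skr-5 it was -0.09 with an interval of -0.66 to 0.49, and for pals-6 it was 0.98 ± 0.48 (SE, adjusted p = 0.275), where wild-type counts were too low for a narrower estimate. The adaptors skr-8 and skr-9 were higher on BW25113 by 0.39 each, with adjusted p of 0.0951 and 0.113. With the replicate number as a block, skr-21 passed as higher on BW25113 at a log2FC of 0.55 and an adjusted p of 0.0298. Its means were 159.9 ± 41.5 normalized counts on BW25113 and 107 ± 13.95 normalized counts on OP50.

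**Figure D3:**
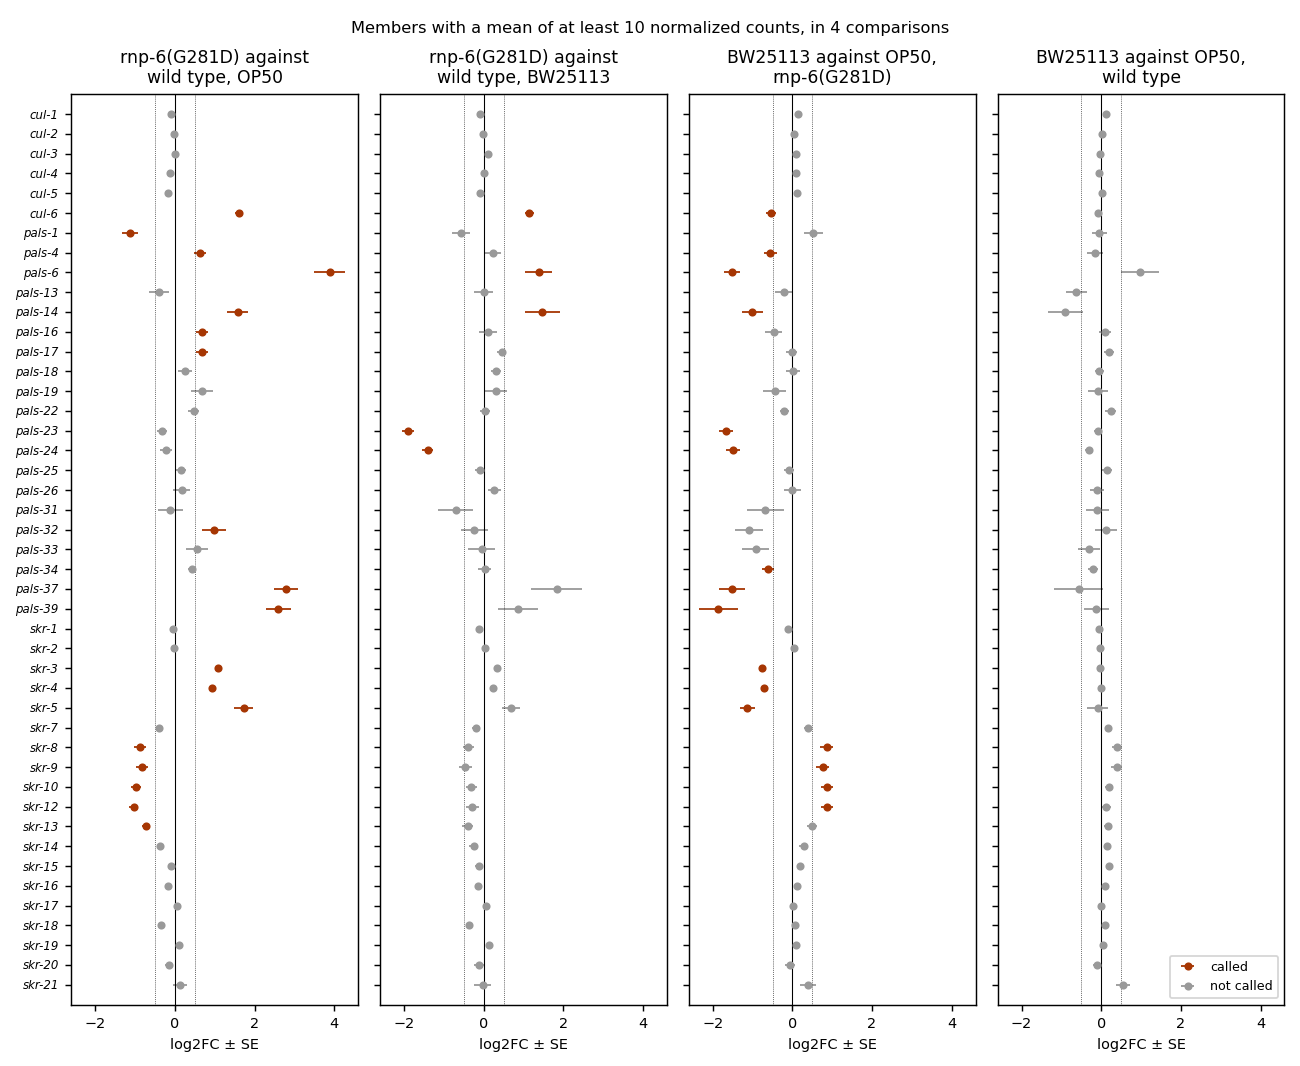
The log2FC of each of the 45 tested members (rows) with its standard error (bars), on a linear axis, for the genotype comparison on each diet (left pair of panels, OP50 first) and for the diet comparison in each genotype (right pair, mutant first). Dark red points passed the test, grey points did not, and dotted lines mark an absolute log2FC of 0.5. The numbers of dark red points in the 4 panels are 18, 5, 16 and 0.

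The genotypes were then compared on BW25113, which shares no sample with their comparison on OP50. On BW25113, cul-6, pals-6 and pals-14 were higher in rnp-6(G281D), and pals-23 and pals-24 were lower. These were 3 members higher and 2 lower of 45, or 11.1%, where 5.68% of all genes tested passed, 2.22% higher and 3.47% lower. Of the 3, pals-14 passed the minimum for testing only through its mutant samples. The means of cul-6 were 378 ± 62.4 normalized counts in rnp-6(G281D) and 169.6 ± 14.3 normalized counts in wild type, a log2FC of 1.14 ± 0.12 (SE, adjusted p = 8.12e-05), where that on OP50 was 1.61 ± 0.09. Among all 45, 11 members lay wholly above and 7 wholly below wild type, where 10.1% of all genes tested lay above and 10.1% below.

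For pals-6 the log2FC on BW25113 was 1.38 ± 0.35 (SE, adjusted p = 0.0226) and for pals-14 1.47 ± 0.44 (SE, adjusted p = 0.046). Both were close to the limit. The call of pals-6 was lost without replicate 4 of rnp-6(G281D) or replicate 1 or 4 of wild type (adjusted p 0.0524 to 0.0684, log2FC 1.11 to 1.27), and that of pals-14 without any library except replicate 2 of wild type (adjusted p 0.0557 to 0.113, log2FC 1.03 to 1.65). For pals-37 the log2FC was 1.83 ± 0.63 (SE, adjusted p = 0.078), and with the replicate block it passed at an adjusted p of 0.0398. For pals-39 it was 0.86 ± 0.50 (SE, adjusted p = 0.276), and without replicate 2 of rnp-6(G281D), at 3.10 normalized counts, it was 1.42 and passed at 0.0161.

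For the adaptors of CUL-6 on BW25113, the log2FC of skr-3 was 0.33 ± 0.05 (SE, adjusted p = 0.00162) and that of skr-4 0.23 ± 0.07 (SE, adjusted p = 0.0397), both under the fold threshold, and that of skr-5 was 0.68 ± 0.22 (SE, adjusted p = 0.0675). In all 3 genes each mutant sample was above each wild-type sample. The fall of skr-18 was of the same size as on OP50, at a log2FC of -0.38 ± 0.05 (SE, adjusted p = 0.000724), with means of 1267 ± 76.9 normalized counts in rnp-6(G281D) and 1646 ± 79.7 normalized counts in wild type.

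The log2FC of skr-8, skr-9, skr-10, skr-12 and skr-13 between genotypes on BW25113 lay between -0.46 and -0.29, with adjusted p of 0.0518 to 0.263. Without replicate 3 of rnp-6(G281D), skr-8, skr-9 and skr-13 passed as lower, at -0.54, -0.59 and -0.52. Under that omission 5 members were lower in place of 2.

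The pals genes of the left end of chromosome III divided within their group. Counts of pals-23 were 59.3, 49.3, 37.6 and 52.01 normalized counts in rnp-6(G281D) on BW25113 and 185, 152, 169 and 131 in rnp-6(G281D) on OP50, against 212, 186, 172 and 176 in wild type on BW25113 and 197, 219.7, 206 and 171 in wild type on OP50. Counts of pals-24 were 61.7, 46.3, 56.6 and 62.8 normalized counts in rnp-6(G281D) on BW25113 and 208, 181, 138 and 126 in rnp-6(G281D) on OP50, against 169.5, 144, 141 and 153 in wild type on BW25113 and 219, 189, 178 and 169.6 in wild type on OP50. In both genes the mutant samples on BW25113 were low and did not overlap with any other sample, while the mutant samples on OP50 overlapped with both wild-type groups.

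Between genotypes on BW25113 the log2FC was -1.90 ± 0.15 (SE, adjusted p = 1.54e-05) for pals-23 and -1.41 ± 0.14 (SE, adjusted p = 5.91e-05) for pals-24. On OP50 it was -0.32 ± 0.12 (SE, adjusted p = 0.0725) and -0.23 ± 0.16 (SE, adjusted p = 0.311), which did not pass. The next 2 genes on the same strand, pals-22 and pals-25, did not share the pattern: pals-22 measured 109, 117, 109 and 94.1 normalized counts in rnp-6(G281D) on BW25113 and 125, 140.0, 109.6 and 120.2 in rnp-6(G281D) on OP50, against 109, 104.8, 94.6 and 113 in wild type on BW25113 and 76.7, 86.8, 114 and 82.8 in wild type on OP50. In the mutant on BW25113 pals-25 averaged 126 ± 10.7 normalized counts, against 135 ± 15.8 normalized counts in wild type on BW25113. The log2FC between genotypes on BW25113 was 0.03 for pals-22 with an interval of -0.23 to 0.29 and -0.10 for pals-25 with an interval of -0.36 to 0.16.

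Summed sperm markers were also lowest in rnp-6(G281D) on BW25113, although spe-38, too low to test, had its highest mean there at 3.63 normalized counts. Of 6 sperm markers tested, gsp-3, gsp-4, spe-11 and spe-15 were lower in rnp-6(G281D) on BW25113 than on OP50, and only spe-41 was lower than in wild type on BW25113. In wild type gsp-3 was also lower on BW25113 than on OP50, at a log2FC of -0.69 (limma, adjusted p = 0.0178). No sperm marker was called in the test of whether the diet effect differed between genotypes. The sum of 7 sperm markers was 853 to 1178 normalized counts in rnp-6(G281D) on BW25113, 1424 to 2188 in rnp-6(G281D) on OP50, 1191 to 1503 in wild type on BW25113 and 1589 to 1816 in wild type on OP50, and none was at 0. Their part in the pals-23 and pals-24 values was not tested. The opposite-strand gene C29F9.12, which overlaps pals-24, averaged 2.52 to 11.04 normalized counts over the 4 groups.

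**Figure D4:**
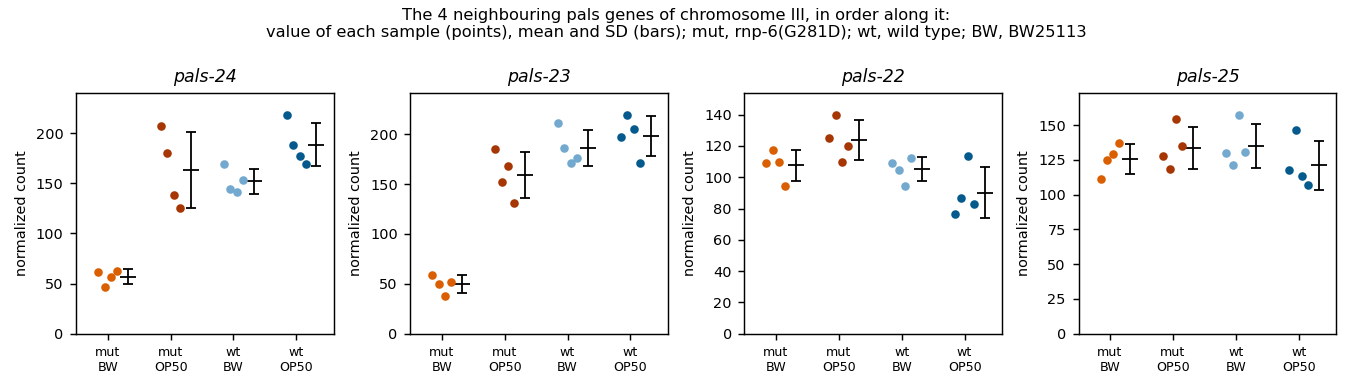
Normalized counts (vertical axis, linear, starting at 0) of pals-24, pals-23, pals-22 and pals-25, in their order on chromosome III, in each sample (points), with mean and SD of the 4 samples of a group (bars), for rnp-6(G281D) on BW25113, rnp-6(G281D) on OP50, wild type on BW25113 and wild type on OP50. For pals-23 the mutant samples on BW25113 lie at 37.6 to 59.3 and all others at 131 to 219.7, whereas the groups overlap for pals-25.

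Whether the diet acted differently in the 2 genotypes was tested as the difference of the diet effects, rnp-6(G281D) minus wild type, in one fit of 16 samples. In this test 5 members were lower and 0 higher of 45, or 11.1%, where 2.42% of all genes tested passed, 0.361% higher and 2.06% lower, and 17 members of 45 had an unadjusted p under 0.05 in either direction, where 17.7% of all genes tested did. The difference was largest for pals-6, at a log2 difference of -2.50 ± 0.55 (SE, adjusted p = 0.011), followed by pals-23 at -1.58 ± 0.20 (SE, adjusted p = 6.64e-05) and pals-24 at -1.18 ± 0.21 (SE, adjusted p = 0.00231). For the CUL-6 adaptors it was -0.75 ± 0.08 (SE, adjusted p = 9.37e-06) for skr-3 and -0.69 ± 0.10 (SE, adjusted p = 0.000498) for skr-4. The calls of these 5 held at the fold threshold of 0.5 under every alternative of scaling, filter, pseudocount, table, block and omitted library, 24 for pals-6 and 25 for each of the others. At an absolute log2 difference over 1 only pals-6, pals-23 and pals-24 passed, where 0.911% of all genes tested were lower.

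For cul-6 itself the difference was -0.47 ± 0.15 (SE, adjusted p = 0.0951), and for skr-5 it was -1.05 ± 0.32 (SE, adjusted p = 0.0709), so neither passed. The call of skr-5 depended on the setting: it passed with a pseudocount of 5, in the FPKM table, without replicate 1 of rnp-6(G281D) on OP50, without replicate 3 of wild type on OP50 and without the 2 libraries rich in F31C3.14, at adjusted p of 0.0307 to 0.0494 and log2 differences of -1.2425 to -0.96. For cul-6 it passed without replicate 3 of rnp-6(G281D) on BW25113, at -0.57 with an adjusted p of 0.0163. For pals-37 and pals-39 it was -0.95 ± 0.76 (SE, adjusted p = 0.58) and -1.73 ± 0.62 (SE, adjusted p = 0.136). The adaptors skr-10 and skr-12, which rose on BW25113 in the mutant, had positive differences of 0.68 ± 0.20 (SE, adjusted p = 0.0678) and 0.75 ± 0.21 (SE, adjusted p = 0.0525). With the replicate number as a block these passed, at adjusted p of 0.0327 and 0.0366. Both also passed after quantile normalization and without replicate 4 of wild type on OP50, skr-10 without replicate 2 of rnp-6(G281D) on OP50, and skr-12 without replicate 2 of rnp-6(G281D) on BW25113 or with a minimum mean of 100, at adjusted p of 0.0219 to 0.0480.

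Other genes of the same pathways were read from lists of named genes. Of 14 further genes of the intracellular pathogen response, 6 reached the minimum for testing. Of these, fbxa-182, an F-box gene, and T08E11.1 rose in rnp-6(G281D) on OP50, were lower on BW25113 than on OP50 in the mutant and were lower in the test of the difference of diet effects. Counts of fbxa-182 averaged 325 ± 60.7 in rnp-6(G281D) on BW25113, 667 ± 75.1 in rnp-6(G281D) on OP50, 230.4 ± 53.2 in wild type on BW25113 and 190.0 ± 32.6 in wild type on OP50 (SD, n = 4 each). The log2FC between genotypes on OP50 was 1.82 ± 0.12 (SE, adjusted p = 2.74e-06) for fbxa-182 and 3.32 ± 0.27 (SE, adjusted p = 9.3e-06) for T08E11.1, which averaged only 4.84 normalized counts in wild type on OP50 and 5.39 in wild type on BW25113 and reached the minimum through its mutant samples. The other 4, F26F2.1, chil-27, Y6E2A.5 and ZC196.3, did not pass in any comparison.

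The RING partner of CUL-6, encoded by rcs-1, averaged 369.8 ± 28.3 normalized counts in rnp-6(G281D) on BW25113, 543 ± 16.8 in rnp-6(G281D) on OP50, 334 ± 14.6 in wild type on BW25113 and 289 ± 11.7 in wild type on OP50 (SD, n = 4 each). Its mutant samples on OP50, at 522 to 563, lay above all others, with a log2FC of 0.91 ± 0.06 (SE, adjusted p = 1.53e-06) between genotypes on OP50 and -0.56 ± 0.07 (SE, adjusted p = 0.000255) between diets in the mutant. Its difference of diet effects was -0.77 ± 0.09 (SE, adjusted p = 2.84e-05). Of the regulators of the response outside the pals family, pnp-1, a purine nucleoside phosphorylase that represses it, had a log2FC of 0.50 ± 0.13 (SE, adjusted p = 0.0137) on OP50, just past the threshold. Between diets in the mutant, pnp-1 was called lower on BW25113, at a log2FC of -0.59 ± 0.11 (SE, adjusted p = 0.00424). The virus sensor drh-1, the transcription factor zip-1, lin-35 and sta-1 were not called in any comparison.

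Of 16 other parts of cullin ligases tested, only kel-8, a kelch-repeat gene, rose in rnp-6(G281D) on OP50, at a log2FC of 0.61 ± 0.07 (SE, adjusted p = 0.000154), and none fell. Of all genes tested, 5.9% rose and 5.6% fell in this comparison. Between the diets in the mutant, kel-8 was also the only one called, at a log2FC of -0.72 ± 0.09 (SE, adjusted p = 0.000253). Its difference of diet effects was -0.53 ± 0.10 (SE, adjusted p = 0.00388) and was called. The RING genes rbx-1 and rbx-2 had log2FC of -0.02 and 0.04. None of 13 genes of neddylation and the COP9 signalosome, the systems that switch cullins on and off, was called in any of the 5 tests, and their median log2FC on OP50 was 0.00, as for all genes tested.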

How the data were processed

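Whole worms of 2 genotypes on 2 diets were sequenced by the authors, with 4 samples in each of 4 groups taken from the sample labels. Per the paper's methods, stranded libraries depleted of ribosomal RNA were read as pairs of 100 bp and quantified against WBcel235, annotation release 89. Tools named in the submitters' processing notes are kallisto 0.46.1, DESeq2 1.24 and Cufflinks 2.2.1. The values used are normalized counts, a signal in which the authors divided estimated counts by size factors, and FPKM values deposited in a separate table. The strand setting is not given in the sources used here, so reads of overlapping genes on opposite strands may not have been told apart. Only 37.4% to 68.0% of low normalized counts were whole multiples of one read (tolerance 0.02), so reads were not recovered and no count model was used.

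In place of the authors' count model, limma 3.58.1 in R 4.3.3 (empirical Bayes with trend) was fitted to log2(normalized count + 1) of 15799 genes averaging 10 or more, separately for each pair of groups and, for the difference of diet effects, to all 16 samples. Fold changes are on that scale and understate those of low genes. P-values were adjusted by Benjamini-Hochberg over all genes tested, two-sided, and calls required an adjusted p below 0.05 together with log2FC above 0.5 in size, as in the study. Intervals are at 95%. An exact permutation test over 70 divisions of 8 samples was run for single members. The fit was tested on simulated data.

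The members and lists were chosen with earlier results of these data known. Named members were all those called, up to 10 in each direction per comparison, and those known from the intracellular pathogen response or the core ligases. In addition pals-4, pals-13, pals-26 and pals-33 were named after their values were seen. Also named outside this rule were pals-7, pals-38 and the remaining skr genes, among them skr-7, skr-14, skr-18 and skr-21. Gene names came from the tables, positions from an Ensembl release 115 annotation of WBcel235, and all 63 names matched. From the list of the pathogen response, 6 entries were dropped as former names of pals genes. Promoter motifs were not analysed here.

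Nothing states that replicates came from separate cultures, so p-values measure the spread between these samples, which may be technical. Replicate numbers were shared between groups. Across 10252 genes averaging 100 or more, deviations of samples with the same number correlated at 0.197 to 0.299 between genotypes on OP50, 0.104 to 0.470 between genotypes on BW25113 and 0.212 to 0.564 between diets in wild type, all over 0.1, so these were also fitted with the number as a block. Between diets in rnp-6(G281D) the range was -0.064 to 0.273. Alternatives covered pseudocounts, filters, scalings, FPKM, the block, one joint fit, fold thresholds and each library left out.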

Additional observations from a re-analysis of the deposited data

Results flagged for a closer look

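The effect of BW25113 differed between the genotypes for 5 members by the test of the difference itself, rnp-6(G281D) minus wild type on the log2 scale: -2.50 for pals-6, -1.58 for pals-23, -1.18 for pals-24, -0.75 for skr-3 and -0.69 for skr-4.

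Among 120 groups of 4 samples, for the 30 members followed in detail, 10 had a single sample far from the other 3, where chance gives about 6 (1 in 20). In rnp-6(G281D) on BW25113, skr-8 in replicate 3 was at 681 normalized counts against 434 to 464 in the others, skr-3 in replicate 3 at 1073 against 946 to 965, and pals-39 in replicate 2 at 3.10 against 18.0 to 18.8. In rnp-6(G281D) on OP50, replicate 3 was low for pals-16 at 79.3 against 103 to 104 and for skr-13 at 198 against 257 to 260.0, and replicate 2 was high for skr-2 at 5498 against 5034 to 5086.

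In wild type on BW25113, replicate 1 had 0 normalized counts of pals-37 against 5.998 to 6.36 in the others, and replicate 3 had 4899 of skr-2 against 5169.6 to 5219.8. In wild type on OP50, pals-16 in replicate 1 was at 73.1 against 54.5 to 57.1, and skr-1 in replicate 2 at 4812 against 4864 to 4869.6.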

How the results depend on the processing

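No result changed direction under any alternative. Of 776 comparisons of a called member's value with an alternative other than the fold threshold, 726 kept the call and 50 lost it, among pals-4, pals-6, pals-14, pals-32, pals-34, pals-37, pals-39, skr-8, skr-9 and cul-6. Counts of members called moved as follows. With a mean of at least 100 as the minimum, which leaves fewer pals genes, 4 rose between genotypes on OP50, 5 fell between diets in rnp-6(G281D), 1 rose between genotypes on BW25113 and 1 was higher in the difference of diet effects. With no minimum, 2 were higher between diets in rnp-6(G281D) and 1 rose between genotypes on BW25113, over 29351 genes. In the FPKM table, which does not list 12 of the skr genes, 1 fell between genotypes on OP50 and 0 were higher between diets in rnp-6(G281D). With no fold threshold, 12 fell between genotypes on OP50, 8 were higher between diets in rnp-6(G281D) and 1 in wild type, and 7 rose and 4 fell between genotypes on BW25113. At an absolute log2FC over 1, 7 rose and 2 fell between genotypes on OP50, 0 were higher and 7 lower between diets in rnp-6(G281D), and 3 were lower in the difference of diet effects. The members lost at that threshold included skr-3, skr-4, skr-10, skr-12, skr-13, pals-16 and pals-17. One fit of 16 samples gave 5 rises between genotypes on BW25113, and quantile normalization gave 2 higher in the difference of diet effects, where it also moved the share of higher calls among all genes to 25% from 14.9%. The cause of these last changes was not tested.

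With the replicate number as a block, 1 member was higher between diets in wild type (skr-21) and 2 were higher in the difference of diet effects (skr-10 and skr-12), and pals-37 was gained between genotypes on BW25113. The numbers did not pair the samples between diets in rnp-6(G281D), where the block gave adjusted p of 0.0737 for pals-4 and 0.0540 for pals-14 and no other lost call. It changed no other call.

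Leaving out single libraries gave 11 to 12 rises and 6 to 7 falls between genotypes on OP50, 4 to 5 higher and 8 to 13 lower between diets in rnp-6(G281D), 0 to 1 higher between diets in wild type, 1 to 3 rises and 2 to 5 falls between genotypes on BW25113, and 0 to 2 higher and 5 to 6 lower in the difference of diet effects. Depth limits the scarce pals genes most, and 18 could not be tested. For pals-37, at a mean of 17.7 normalized counts, the difference of diet effects had a standard error of 0.76 on the log2 scale. The motif search in promoters that had been planned was not run.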
